A study of Homo sapiens with 6 samples.

Results

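AT-rich simple repeats with longer units are tandem repeats whose repeated unit has 4 or more bases, of which under 50% are G or C. They were taken by name from the deposited table of repeat levels, where such an entry is written (unit)n, and the pentamers of satellites II and III belong to them. Of the 7383 entries of that table, 2684 (36.4%) met this rule. The filter on low counts left 1195 of them among the 4665 entries tested, so 1489 carry levels but no test. The other entries of the table are 3439 simple repeats with shorter or more GC-rich units and 1260 entries that are not simple repeats.

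The series holds total RNA of H9 cells, a human embryonic stem cell line in wide use, with 3 groups and 2 libraries in each. Primed cells were grown in mTeSR medium. RSeT cells were grown in RSeT, a medium sold for keeping human stem cells in a naive-like state. RSeT+DT cells were RSeT cells given 10 nM DZNep, which lowers histone methylation, that by EZH2 included, and 5 nM TSA, a histone deacetylase inhibitor, and were harvested after 48 hours. The labels name no genetic change in any group. They also leave unsaid whether paired libraries of a group are different cultures. The p-values below therefore speak of the spread from library to library, which may be technical. The tables used here list repeats only, so neither the cell type nor the cell state could be checked against marker genes. Counts assigned to repeats ranged from 11520770 to 38312112 per library, and the deepest library was RSeT replicate 1. The AT-rich repeats held 163838 to 523582 of these counts.

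Simple repeats arise when polymerases slip on short tandem units, and they lie mostly in introns and between genes, where an RNA that runs through them carries their sequence. Satellites II and III are different in kind: they are long arrays, built from diverged copies of a GGAAT-like pentamer, in the heterochromatin beside the centromeres of several chromosomes. These arrays are known for heavy DNA methylation in most tissues and for transcription under heat shock and in some cancers. A count in these tables sums every genomic copy with 1 name, so no coordinates belong to a value. A single array can be spread over several names, because the name depends on the base at which the unit is taken to begin and on the strand from which it is read. The tables hold no lengths, so levels of different repeats cannot be set per base, and any order of levels given here is an order of counts. In bulk RNA, fewer cells that transcribe a repeat and less RNA per cell cannot be told apart.

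The results turn on the 10 names of the satellite pentamer, shown here as 3 units each, written 5′ to 3′ with G and C in capitals, because they are rotations of a single motif and of its reverse complement. Register gives the base at which the motif begins. Forward and reverse mean the motif and its reverse complement as written in the name. The strand setting of the counting is not given, so neither word says which strand was transcribed.
Row (GGAAT)n, forward register 0, 3 units: GGaatGGaatGGaat
Row (GAATG)n, forward register 1, 3 units: GaatGGaatGGaatG
Row (AATGG)n, forward register 2, 3 units: aatGGaatGGaatGG
Row (ATGGA)n, forward register 3, 3 units: atGGaatGGaatGGa
Row (TGGAA)n, forward register 4, 3 units: tGGaatGGaatGGaa
Row (ATTCC)n, reverse register 0, 3 units: attCCattCCattCC
Row (CATTC)n, reverse register 1, 3 units: CattCCattCCattC
Row (CCATT)n, reverse register 2, 3 units: CCattCCattCCatt
Row (TCCAT)n, reverse register 3, 3 units: tCCattCCattCCat
Row (TTCCA)n, reverse register 4, 3 units: ttCCattCCattCCa
A second set is shown for large changes outside the satellites or for the most counts: a pentamer and a hexamer that rose in RSeT cells, a heptamer that fell, and the entry with the most raw counts with and without G or C. The changes are the largest against primed cells only under the naming rule given below, and rows outside it changed more. By mean CPM over all libraries (TATTTTA)n, at 187.6, lay above (TTTA)n, at 177.7.
Row (TTGCA)n, 3 units: ttGCattGCattGCa
Row (CTTTTA)n, 3 units: CttttaCttttaCtttta
Row (TTTTCTT)n, 3 units: ttttCttttttCttttttCtt
Row (TAAGG)n, 3 units: taaGGtaaGGtaaGG
Row (TTTA)n, 3 units: tttatttattta

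The satellite row (GGAAT)n was close to absent in primed cells and among the most counted AT-rich repeats in RSeT cells. It had 12 and 5 counts in the primed libraries, or 0.713 and 0.367 CPM (counts per 1000000 repeat counts). RSeT libraries had 250.8 and 279.4 CPM, and RSeT+DT libraries 426.2 and 359.2 CPM. Both RSeT libraries lay above both primed ones, and both RSeT+DT libraries lay above both RSeT ones. The log2 fold change in RSeT against primed cells was 9.0 (SE 0.15), or 511-fold, with an adjusted p of 1.74e-25 in edgeR's quasi-likelihood test with TMM scaling and Benjamini-Hochberg adjustment over all tested entries. A change is called below when this adjusted p is under 0.05. SE here and below is derived from the test statistic, and for rows with few counts in 1 group it can be smaller than the counting error. That holds for (GGAAT)n with its 12 and 5 primed counts, so the fold is a rough value.

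The remaining 9 names of the satellite pentamer moved by very different amounts. (TGGAA)n had 0.475 and 0.440 CPM in primed, 13.9 and 17.9 in RSeT and 18.4 and 18.1 in RSeT+DT cells, and its log2 fold change in RSeT against primed cells was 5.19 (SE 0.25, adjusted p = 3.17e-15). Among the reverse names (TCCAT)n had 0.416 and 0.367 CPM in primed, 10.4 and 10.5 in RSeT and 10.9 and 5.99 in RSeT+DT cells, a log2 fold change of 4.83 (SE 0.32) between the first pair of groups. (ATGGA)n rested on 1 count in each primed library against 88 counts over both RSeT libraries, a ratio of 24.2 with a 95% counting interval from 6.49 to 203. These 3 rows were thus near 0 in primed cells and higher in every RSeT and RSeT+DT library.

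Most of the other registers were already present in primed cells, and all changed less in RSeT cells than the rows given so far. (ATTCC)n was the exception in level, at 0.653 and 0.734 CPM in the primed libraries. (AATGG)n went from 6.36 and 8.51 CPM in primed to 11.9 and 12.2 CPM in RSeT cells, a log2 fold change of 0.84 (SE 0.15), and (TTCCA)n from 9.38 and 8.95 to 11.3 and 14.6 CPM, a log2 fold change of 0.59 (SE 0.14). In both rows the RSeT libraries lay above the primed ones. (ATTCC)n was called at a log2 fold change of 1.06 (SE 0.42, adjusted p = 0.0387), but its RSeT libraries stood far apart at 1.67 and 0.756 CPM, and without RSeT replicate 1 the value was 0.25. The call was also lost without either primed library, with library totals, with interspersed scaling and with DESeq2. (GAATG)n, at 9.92 and 9.25 CPM in primed and 9.19 and 10.5 CPM in RSeT cells, was not called. (CATTC)n and (CCATT)n were not called either, with log2 fold changes of 0.33 (SE 0.26) and -0.59 (SE 0.30). (CCATT)n was called lower with library totals (-0.72) and with interspersed scaling (-0.75), a scaling from repeats that are neither simple repeats, low-complexity repeats, small RNA nor ribosomal RNA. In all, 7 of the 10 names were called higher and 0 lower in RSeT cells, beside 22.8% and 23.8% of all tested entries. No name was lower at an unadjusted p under 0.05 in edgeR (0 of 10) or by DESeq2 (0).

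**Figure D1:**
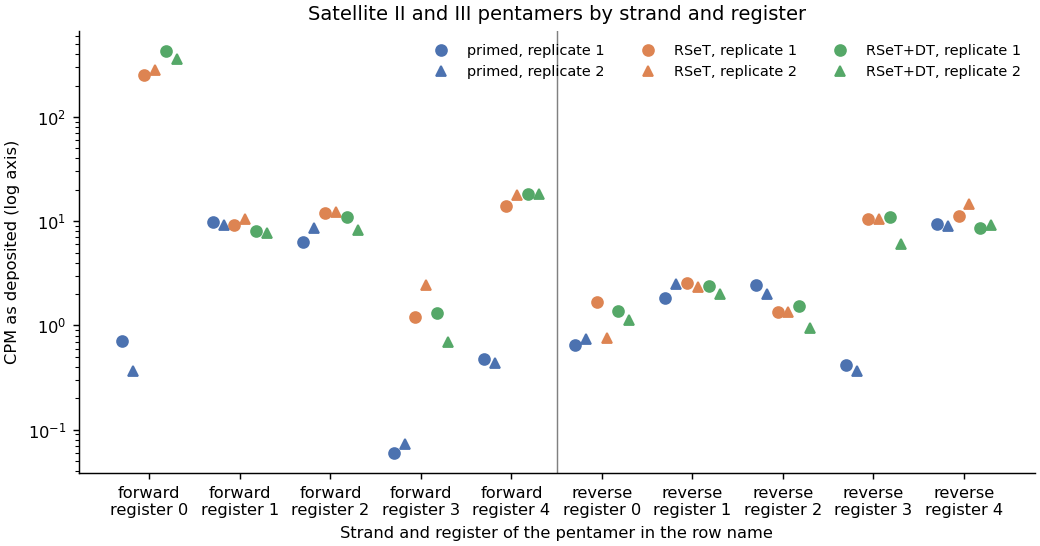
Deposited CPM (log axis) of the 10 rows of the satellite II and III pentamer in each library, by strand and register. Circles are replicate 1 and triangles replicate 2 of each group. Forward register 0 goes from 0.713 and 0.367 CPM in primed cells to 426.2 and 359.2 CPM in RSeT+DT cells, while forward register 1 stays between 7.73 and 10.5 CPM in all 6 libraries.

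Summed over both strands, the satellite pentamers had 32.3 and 33.2 CPM in primed, 314.3 and 352.0 CPM in RSeT and 489.7 and 413.3 CPM in RSeT+DT cells. The forward names rose from 17.5 and 18.6 CPM in primed to 287.0 and 322.5 CPM in RSeT cells. The reverse names rose from 14.7 and 14.5 CPM to 27.3 and 29.5 CPM. When rotations were summed before the fit, the forward names had a log2 fold change of 4.14 (SE 0.095, adjusted p = 1.1e-15) and the reverse names of 1.01 (SE 0.12, adjusted p = 1.65e-06). The 2 sets of names were near parity in primed cells, and the forward names held most of the sum in both other groups. Forward register 0 alone held 87.1% of the forward counts over all 6 libraries, but only 12 of 295 and 5 of 254 in the primed libraries. Without it, the 9 other names summed to 31.5 and 32.8 CPM in primed, 63.5 and 72.5 CPM in RSeT and 63.5 and 54.1 CPM in RSeT+DT cells. The satellite pentamers took 0.233 ± 0.0016% of the counts of all AT-rich repeats in primed cells, 2.46 ± 0.23% in RSeT cells and 3.19 ± 0.41% in RSeT+DT cells (mean ± SD, n = 2 each). They are 10 of the 2684 names.

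With DZNep and TSA, 2 of the 10 satellite names were called higher than in RSeT cells and 0 lower, beside 25% and 17.4% of all tested entries. In edgeR 1 name was lower at an unadjusted p under 0.05, and in DESeq2 0 were called lower. (GGAAT)n rose a further 1.66-fold, a log2 fold change of 0.73 (SE 0.060, adjusted p = 4.4e-10). (TGGAA)n rose by 0.38 on the log2 scale (SE 0.13, adjusted p = 0.0159), from 13.9 and 17.9 to 18.4 and 18.1 CPM. That call was lost with library totals (0.23), with DESeq2 (0.32), and without RSeT+DT replicate 1 (0.36) or RSeT replicate 1 (0.19). (TTCCA)n had a log2 fold change of -0.36 (SE 0.15) at an adjusted p of 0.0534, and 9 of the other settings called it lower, among them library totals (-0.51). (TCCAT)n, with -0.13 (SE 0.18), was not called, except lower without RSeT+DT replicate 1 (-0.67). The family summed over forward and reverse names had a log2 fold change of 0.70 (SE 0.069), and the reverse names alone of -0.10 (SE 0.11), which was not called. Against primed cells, RSeT+DT cells had log2 fold changes of 9.73 (SE 0.14) for (GGAAT)n, 5.57 (SE 0.25) for (TGGAA)n and 4.70 (SE 0.35) for (TCCAT)n. Called too was the row (ATGGA)n, with 25 counts against 2, a ratio of 15.5 with a 95% counting interval from 3.86 to 135. (AATGG)n was called at 0.68 (SE 0.17), a call lost with library totals (0.39), with limma (0.33 with 1 added to the CPM) and without RSeT+DT replicate 1 (0.44). Its RSeT+DT libraries, at 10.9 and 8.25 CPM, overlapped with the primed ones, at 6.36 and 8.51 CPM. These 5 names were called higher and 0 lower, beside 25.1% and 20.6% of all tested entries, with 0 lower at an unadjusted p under 0.05 and 0 by DESeq2. (ATTCC)n, with 1.14 (SE 0.48), missed the threshold with an adjusted p of 0.0516, and passed it under 5 other settings, interspersed scaling (1.204) among them. (CCATT)n, with -0.54 (SE 0.35), was called lower only by limma (-0.52 with 1 added to the CPM).

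Longer names of the satellite type added little. Among 29 AT-rich repeats with units of 10 bases, 6 came within 2 mismatches of a pair of satellite pentamers. They had 5 and 12 counts in the primed, 47 and 19 in the RSeT and 33 and 12 in the RSeT+DT libraries, and 0 of them passed the filter. These 6 were picked after the names were seen. The separate entry HSATII, a consensus for satellite II, had 0 counts in all 6 libraries. As other satellites in these libraries, ALR/Alpha, the alpha satellite of centromeres, rose by 6.05 on the log2 scale in RSeT against primed cells and fell by 1.84 with DZNep and TSA, while HSAT4 fell by 1.04 in RSeT cells. HSATI had few counts: 10 and 3 in primed, 53 and 44 in RSeT and 5 and 6 in RSeT+DT libraries. It rose by 2.23 in RSeT cells and fell by 1.88 with the drugs. HSAT5 rose by 0.23 in RSeT cells, a call lost with library totals (0.099), and was not called with the drugs. The change of (GGAAT)n with the drugs was thus opposite in sign to that of ALR/Alpha and of HSATI.

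As a class, AT-rich repeats took nearly the same part of each library. They held 1.38 and 1.43% of repeat counts in the primed, 1.37 and 1.34% in the RSeT and 1.41 and 1.42% in the RSeT+DT libraries. Over the same groups the other simple repeats went from 8.14 ± 0.21% to 6.55 ± 0.060% and back to 7.74 ± 0.082% (n = 2 each). Within the class the make-up shifted by a few percentage points. Pentamers held 23.9 and 23.8% of the class's counts in primed, 26.2 and 26.1% in RSeT and 27.4 and 26.7% in RSeT+DT cells, and without the satellite pentamers they held 23.5 to 23.9% in every library. Tetramers held 20.98 and 21.01% in primed, 21.8 and 22.0% in RSeT and 18.1 and 19.0% in RSeT+DT cells. Units without G or C held 14.97 and 14.92% in primed, 15.8 and 15.6% in RSeT and 12.8 and 14.2% in RSeT+DT cells, so the RSeT+DT libraries were lowest and the furthest apart. These shares carry no test, since the exact permutation test (two-sided) of 2 libraries against 2 reaches p = 0.333 at the least.

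**Figure D2:**
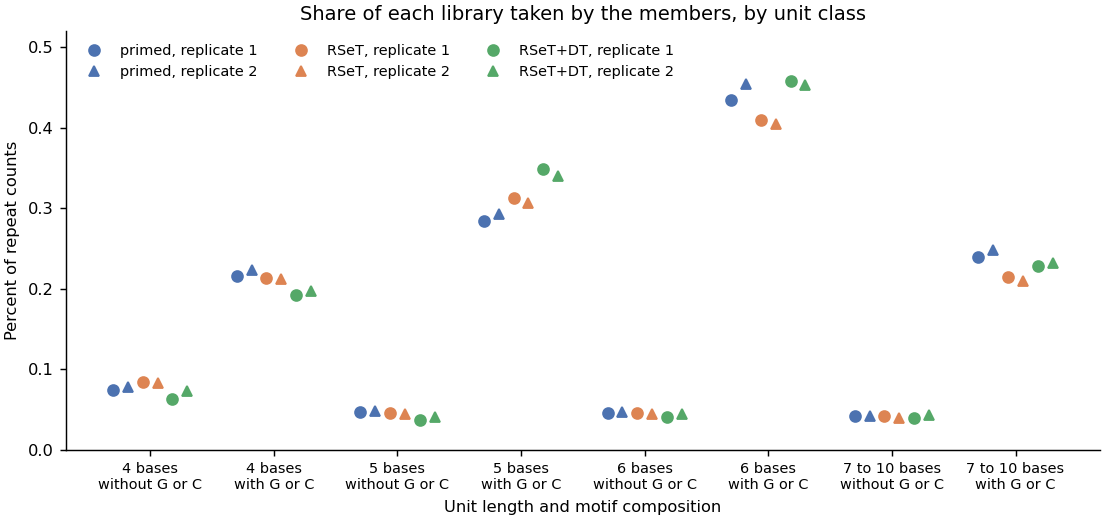
Percentage of all repeat counts taken by AT-rich repeats of each unit length, split into units without and with G or C. Each library is a point, with circles for replicate 1 and triangles for replicate 2. Pentamers with G or C go from 0.284 and 0.293% in primed to 0.349 and 0.340% in RSeT+DT libraries, and tetramers without G or C are lowest in RSeT+DT at 0.0631 and 0.0730%.

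Counts were concentrated in few names. The 10 most counted held 19.7% of the 1529645 counts of the class, and the 100 most counted held 63.2%. The median name had 46 counts over all 6 libraries, and 1806 names had under 100. The number of names with no count was 12 and 120 in the RSeT, 154 and 183 in the primed and 371 and 373 in the RSeT+DT libraries, and it followed depth in part only: RSeT+DT replicate 1, with 371, had 13064045 counts and primed replicate 2, with 183, had 13628911. Unit length and testability went together: 75 of 78 tetramers passed the filter, 237 of 367 pentamers, 410 of 748 hexamers and 473 of 1490 names with units of 7 to 10 bases. The median mean count of the tested names was 488.7 for tetramers and 23.3 for units of 7 to 10 bases, so the share of names called in a class is also a matter of counts. The single name with a unit of 11 bases, (TGAACTATGTG)n, had 1 and 0 counts in RSeT+DT, 12 and 5 in RSeT and 7 and 2 in primed libraries and was not tested.

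Of the 10 most counted names, all but (GGAAT)n changed by less than 2-fold in each comparison. (TAAGG)n, the most counted, had 462.6 and 471.2 CPM in primed, 513.9 and 482.7 CPM in RSeT and 782.9 and 707.7 CPM in RSeT+DT cells. Its rise with DZNep and TSA was 0.74 on the log2 scale (SE 0.053, adjusted p = 4.61e-11), while its call in RSeT against primed cells, at 0.23 (SE 0.053), was lost with library totals (0.094) and interspersed scaling (0.066) and without RSeT replicate 1 (0.18). (AGATGA)n had 383.6 and 404.2, 318.8 and 334.9, and 490.5 and 443.0 CPM in the same order, so the RSeT libraries were lowest and the RSeT+DT libraries highest. It rose by 0.67 (SE 0.050) with the drugs, and its fall in RSeT cells, -0.14 (SE 0.050), was lost with DESeq2, with RLE size factors and without either RSeT library or primed replicate 2. (AATAAGA)n, at 389.7 and 396.1, 266.8 and 270.4, and 348.7 and 354.8 CPM, fell by 0.42 (SE 0.039) in RSeT cells and rose by 0.54 (SE 0.039) with the drugs. Its small rise in RSeT+DT against primed cells (0.13) turned into a fall of -0.16 with library totals.

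Several of these highly counted rows are T-rich on the strand given by the name. (TTTC)n had 230.3 and 232.7 CPM in primed, 270.2 and 261.9 CPM in RSeT and 318.3 and 302.3 CPM in RSeT+DT cells, and was called higher in each step, by 0.33 (SE 0.039) and 0.38 (SE 0.039). (TCTTC)n likewise went from 144.8 and 146.4 through 188.8 and 183.7 to 221.5 and 228.4 CPM, with log2 fold changes of 0.49 (SE 0.039) and 0.42 (SE 0.039). In both rows no library of one group overlapped with the next group. (TCATCT)n fell by 0.26 (SE 0.034) in RSeT cells, from 274.5 and 283.4 to 212.2 and 212.4 CPM, and rose by 0.45 (SE 0.035) with the drugs. (CTTTTT)n, at 193.9 and 208.2, 183.7 and 183.0, and 233.4 and 216.2 CPM, rose by 0.45 (SE 0.044) with the drugs, and had 0.00 (SE 0.044) in RSeT against primed cells with TMM. In the latter comparison it was called lower with library totals (-0.13) and with interspersed scaling (-0.16). (TATTTTA)n rose by 0.44 (SE 0.049) with the drugs, and its call in RSeT against primed cells (0.15) was lost under 7 settings, with -0.014 under interspersed scaling. (TTTA)n, which has no G or C, was 152.6 and 156.9 CPM in primed and 212.0 and 210.6 CPM in RSeT cells, a rise of 0.58 (SE 0.044), and 155.2 and 178.6 CPM in RSeT+DT cells. Its fall with the drugs, -0.19 (SE 0.044), was 0.029 with interspersed scaling.

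In RSeT against primed cells, 243 of the 1195 tested AT-rich repeats (20.3%) were called higher and 135 (11.3%) lower with TMM scaling, beside 22.8% and 23.8% of all tested entries. Without TMM, by library totals, the counts were 170 higher and 215 lower, beside 14.6% and 32.9%. With interspersed scaling they were 156 and 240, beside 13.7% and 36.1%. The excess of rises over falls thus held with TMM and turned with both other scalings, while a smaller share of AT-rich repeats than of all entries was lower under all 3. Relative to TMM, library totals moved the log2 fold changes of all entries by a median of -0.13 and interspersed scaling by -0.16. With TMM the median log2 fold change of the AT-rich repeats was 0.09, beside -0.03 for all entries, -0.30 for the other simple repeats and 0.17 for entries that are not simple repeats. Without RSeT replicate 1 the number higher was 146.

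With TMM, units without G or C held a larger share of rises than the rest in this comparison. Of 174 tested, 49 (28.2%) were called higher and 8 (4.6%) lower, against 194 (19.0%) and 127 (12.4%) of the 1021 tested units with G or C. The shares of all tested entries were 22.8% and 23.8%. With library totals the shares higher were 14.9% (26, with 17 lower) against 14.1%, and with interspersed scaling 13.8% (24, with 21 lower) against 12.9%, so that the shares higher then differed little. Falls stayed a smaller share of units without G or C than of the rest under each scaling. Tested names without G or C had a median mean count of 68.6, against 31.2 for the others. Median log2 fold changes were 0.19 and 0.07 with TMM, 0.06 and -0.06 with library totals, and 0.03 and -0.09 with interspersed scaling. The difference between the 2 classes was not tested, and a scaling moves both medians by about the same amount. By length, 8 of 15 tetramers without G or C were called higher and 0 lower in edgeR, with 0 lower at an unadjusted p under 0.05 and 0 by DESeq2. The same counts were 13 and 2 of 30 for pentamers, 15 and 3 of 51 for hexamers and 13 and 3 of 78 for units of 7 to 10 bases. Units with G or C gave 11 and 9 of 60, 52 and 18 of 207, 60 and 37 of 359 and 71 and 63 of 395.

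**Figure D3:**
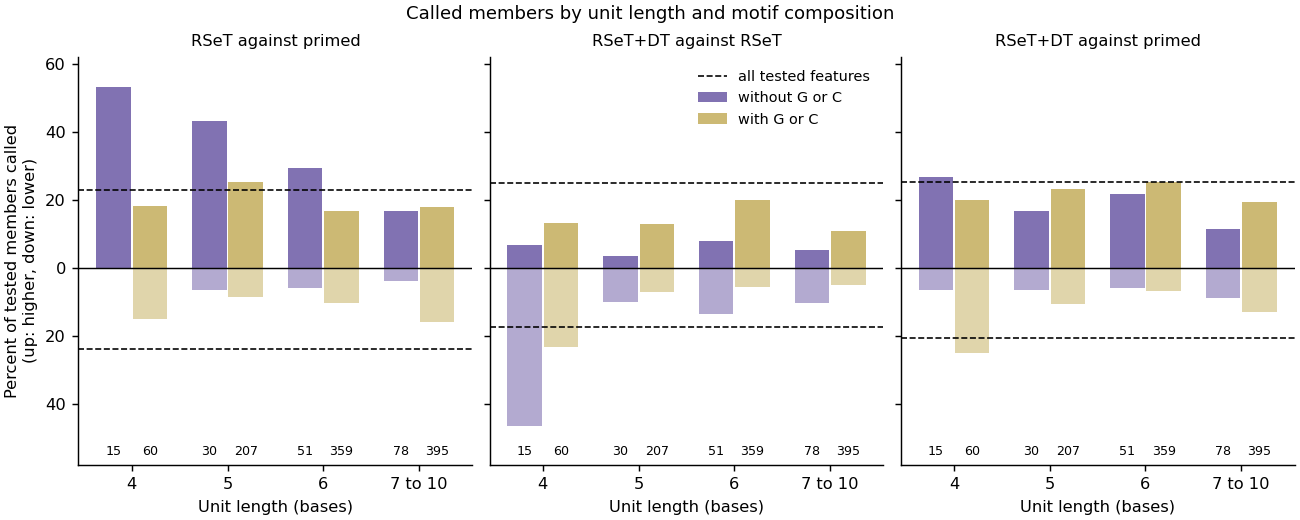
Percentage of tested AT-rich repeats called higher (upward bars) or lower (downward bars) with TMM scaling in each comparison, by unit length and by units without or with G or C. The numbers along the bottom are names tested and the dashed lines give the share of all tested entries. In RSeT against primed cells 53.3% of tetramers without G or C are higher, and in RSeT+DT against RSeT cells 46.7% of them are lower.

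Rows with the largest changes were named among called rows with a mean count of at least 50 and no overlap between the groups. Within these limits, the largest rises in RSeT against primed cells outside the satellites were in rows of low level. (TTGCA)n went from 0.832 and 0.954 CPM in primed to 9.50 and 8.78 CPM in RSeT cells, a log2 fold change of 3.50 (SE 0.23, adjusted p = 2.03e-12), and stood at 5.66 and 7.20 CPM in RSeT+DT cells. (CTTTTA)n went from 0.535 and 0.440 to 4.91 and 6.40 CPM, a log2 fold change of 3.60 (SE 0.30), and (TAATAG)n from 0.891 and 0.660 to 4.52 and 5.00 CPM, a log2 fold change of 2.701 (SE 0.31). All 3 were close to absent in primed cells and were not called between RSeT+DT and RSeT cells with TMM. For (TTGCA)n that change was -0.37 (SE 0.16), and it was called lower with library totals (-0.52). Both of its RSeT+DT libraries lay below both RSeT ones. (TTATATC)n rose at both steps, from 2.97 and 2.72 CPM in primed through 14.96 and 11.6 CPM in RSeT to 20.4 and 22.6 CPM in RSeT+DT cells, with log2 fold changes of 2.38 (SE 0.17) and 0.81 (SE 0.12). (TTTGCT)n, at 5.88 and 8.29 CPM in primed and 27.1 and 25.2 CPM in RSeT cells, rose by 2.04 (SE 0.13).

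Within the same limits, the 3 largest falls in RSeT cells were in heptamers. (TTTTCTT)n fell from 44.4 and 47.1 CPM in primed to 10.9 and 10.4 CPM in RSeT cells, a log2 fold change of -1.96 (SE 0.095, adjusted p = 4.13e-15), or 3.89-fold, and stayed at 9.34 and 11.2 CPM in RSeT+DT cells. (CCTTTCT)n fell from 50.7 and 48.2 to 17.7 and 16.4 CPM, a log2 fold change of -1.39 (SE 0.084), and (ATTTAAG)n from 12.8 and 12.4 to 4.54 and 4.01 CPM, a log2 fold change of -1.41 (SE 0.15). Each primed library of these rows lay more than 2-fold above each RSeT library. (TTAATTT)n, without G or C, fell by 1.13 (SE 0.17), from 9.92 and 13.0 to 5.14 and 4.07 CPM. Between -1.39 and -1.13 lay 4 further falls, those of (TGAGA)n, then (TCTGTT)n, then (TTCTGA)n, then (AACAAGA)n, none above 8.00 CPM in any library. A row outside the naming rule, singled out after its values were seen, fell further: (TTTCAAT)n had 137 and 149 counts in primed, 5 and 2 in RSeT and 3 and 1 in RSeT+DT libraries. The ratio of primed to RSeT was 74.4, with a 95% counting interval from 35.7 to 187, and the fitted log2 fold change was -6.02 (SE 0.34, adjusted p = 1.07e-13).

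**Figure D4:**
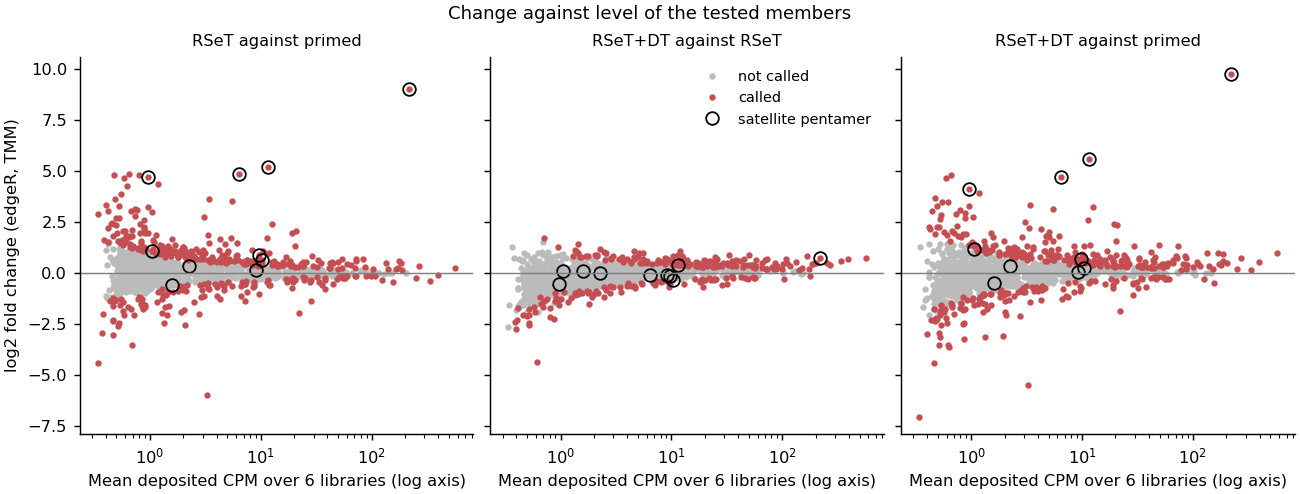
Log2 fold change (edgeR, TMM) of each tested AT-rich repeat against its mean deposited CPM over the 6 libraries (log axis). Red points are called at an adjusted p under 0.05, and open circles mark the satellite pentamers. Forward register 0 lies at 9.0 in RSeT against primed and at 0.73 in RSeT+DT against RSeT cells.

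In RSeT+DT against RSeT cells, 159 AT-rich repeats (13.3%) were called higher and 94 (7.87%) lower with TMM scaling, beside 25% and 17.4% of all tested entries. Both shares were below those of all entries, in a class whose tested names had a median mean count of 35.2, against 113.5 for all tested entries. By library totals 80 were higher and 174 lower, beside 16.9% and 24.8%. With interspersed scaling 286 were higher and 28 lower, beside 37.1% and 6.02%. The balance between rises and falls thus followed the scaling, and library totals moved all log2 fold changes by a median of -0.15 and interspersed scaling by 0.22. The median log2 fold change with TMM was -0.09 for AT-rich repeats, 0.36 for the other simple repeats and -0.22 for entries that are not simple repeats. The number lower was 46 without RSeT+DT replicate 1, 47 without RSeT replicate 1 and 52 without RSeT replicate 2.

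With the drugs, units without G or C held more falls than rises and the rest more rises than falls, with TMM. Of 174 tested, 10 (5.75%) were called higher and 25 (14.4%) lower, against 149 (14.6%) and 69 (6.76%) of the 1021 units with G or C. Each of these shares was below that of all tested entries, 25% higher and 17.4% lower. With library totals the counts were 6 and 49 against 74 and 125, beside 16.9% and 24.8% of all tested entries. With interspersed scaling they were 29 and 3 against 257 and 25, beside 37.1% and 6.02%. Medians without and with G or C were -0.23 and -0.06 with TMM, -0.39 and -0.21 with library totals, and -0.02 and 0.16 with interspersed scaling. Tetramers without G or C had 1 name higher and 7 lower of 15 with TMM, and 5 higher with interspersed scaling. Among these classes hexamers with G or C had the highest share of rises, 71 of 359 (19.8%), and 20 falls. That share of rises was still below the 25% of all tested entries.

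With a mean count of at least 50 and no overlap, the 8 largest called rises with DZNep and TSA lay between 0.82 and 1.06 on the log2 scale. (CAACAT)n went from 7.78 and 8.09 CPM in RSeT to 14.5 and 15.2 CPM in RSeT+DT cells, a log2 fold change of 1.06 (SE 0.13, adjusted p = 1.88e-07), against 12.7 and 14.2 CPM in primed cells. (AAGGA)n had 5.76 and 5.58 CPM in primed, 3.05 and 2.62 CPM in RSeT and 5.28 and 5.47 CPM in RSeT+DT cells, a log2 fold change of 1.05 (SE 0.20) with the drugs. In both rows the RSeT libraries were lower than the 4 others. (TGTGTATATG)n, the decamer among the tested names with the longest unit, went from 4.59 and 3.78 to 8.57 and 6.25 CPM, a log2 fold change of 0.95 (SE 0.19). (TGTTACA)n and then (TATTGTA)n rose by 0.94 (SE 0.18) and 0.86 (SE 0.13), having also risen by 1.07 (SE 0.21) and 1.71 (SE 0.16) in RSeT against primed cells. (TTTCTCT)n, the most counted of the group, went from 32.6 and 35.4 CPM in primed through 44.1 and 44.2 CPM in RSeT to 74.3 and 68.0 CPM in RSeT+DT cells. (TTCTTAC)n, with 26.4 and 21.5 CPM in RSeT and 43.2 and 35.0 CPM in RSeT+DT cells, rose by 0.84 (SE 0.11), and (TTAG)n by 0.82 (SE 0.24), a call lost without RSeT+DT replicate 1.

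The 8 largest called falls with the drugs, within the same limits, were mostly in rows of low level. (GAAAA)n fell from 3.50 and 3.49 CPM in RSeT to 1.22 and 1.91 CPM in RSeT+DT cells, a log2 fold change of -1.02 (SE 0.27, adjusted p = 0.00339), and the call was lost without RSeT+DT replicate 1 (-0.73). (AATATA)n, without G or C, fell from 4.36 and 5.18 to 2.07 and 2.34 CPM, a log2 fold change of -0.94 (SE 0.23), and this call was kept under all settings tried. Its rise in RSeT against primed cells, 0.52 (SE 0.20), was lost under 9 settings, library totals and DESeq2 among them. (ATGAA)n, with the highest level of the group, fell from 24.2 and 20.1 CPM in RSeT to 13.7 and 10.9 CPM in RSeT+DT cells, a log2 fold change of -0.71 (SE 0.13), against 22.2 and 23.8 CPM in primed cells. Its RSeT+DT libraries were below all 4 others. The other 5 falls, from -0.87 to -0.70, were those of (ATTTCAT)n, then (TGTATA)n, then (ACATAT)n, then (TATTC)n, then (AGAAA)n. The first and second of these calls were lost without RSeT+DT replicate 2 and the other 3 without RSeT+DT replicate 1, and all but the first were lost with interspersed scaling too.

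In RSeT+DT against primed cells, 255 AT-rich repeats (21.3%) were called higher and 126 (10.5%) lower with TMM, beside 25.1% and 20.6% of all tested entries. By library totals the counts were 131 and 293, beside 13% and 38.3%, and with interspersed scaling 278 and 111, beside 28.1% and 17.5%. Library totals moved all log2 fold changes by a median of -0.28 and interspersed scaling by 0.06. Of units without G or C, 29 of 174 were called higher and 13 lower with TMM, and of those with G or C 226 and 113 of 1021. Hexamers gave 101 higher and 28 lower of 410, and units of 7 to 10 bases 85 and 58 of 473. This comparison shares its libraries with the other 2, so the values of a row are given side by side. Within those limits, the largest rises after the satellites were (CTTTTA)n at 3.33 (SE 0.34), (TTATATC)n at 3.19 (SE 0.17), (TTGCA)n at 3.12 (SE 0.26), (TATTGTA)n at 2.57 (SE 0.17) and (TAATAG)n at 2.48 (SE 0.35). (TTTTCTT)n, at -1.87 (SE 0.11), was the largest fall under the naming rule. (TCATTTT)n fell by 1.46 (SE 0.26), from 5.46 and 5.72 CPM in primed through 2.66 and 3.32 CPM in RSeT to 1.68 and 1.65 CPM in RSeT+DT cells. (AATGAA)n fell by 1.21 (SE 0.18), from 12.2 and 12.6 CPM in primed to 5.21 and 3.47 CPM in RSeT+DT cells. The outlying (TTTCAAT)n was 57.7 times lower than in primed cells, with a 95% counting interval from 22.3 to 213.

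Among the AT-only rows of (TTTA)n type the order of groups was not the same for each length. The most counted tetramer without G or C, (TTTA)n, was highest in RSeT cells, as given above. The most counted pentamer without G or C, (TTTTA)n, had 53.2 and 55.3 CPM in primed, 52.2 and 51.6 CPM in RSeT and 43.3 and 47.5 CPM in RSeT+DT cells and was called in none of the 3 comparisons with TMM. With library totals it was called lower in RSeT+DT than in RSeT (-0.20) and primed cells (-0.26), and with interspersed scaling higher in RSeT+DT than in RSeT cells (0.17). The hexamer (TTATTT)n had its highest CPM in primed cells, at 68.4 and 66.3 CPM against 48.9 and 52.6 CPM in RSeT cells, a fall of 0.29 on the log2 scale (SE 0.061). It stood at 52.7 and 52.6 CPM in RSeT+DT cells. There it was not called against primed cells with TMM (-0.07, SE 0.066), but was called lower with library totals (-0.36). Its rise with the drugs (0.21) was lost with library totals (0.059), with DESeq2 and without RSeT+DT replicate 1 or RSeT replicate 1. (ATTTAT)n, a different hexamer without G or C, fell by 0.70 (SE 0.14) in RSeT cells, from 11.5 and 14.2 to 7.28 and 6.98 CPM.

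Median fold changes in RSeT against primed cells were lower with each further G or C base in the unit. In RSeT against primed cells the median log2 fold change with TMM was 0.19 for units with 0 such bases (174 tested), 0.11 with 1 (508), 0.01 with 2 (391) and -0.04 with 3 (119). With library totals the same medians were 0.06, -0.02, -0.12 and -0.17, and with interspersed scaling 0.03, -0.05, -0.15 and -0.20. A scaling moves all of these medians by about the same amount, so their order is no separate result. In RSeT+DT against RSeT cells the TMM medians were -0.23, -0.14, 0.04 and -0.09, which turned at 3 bases. These medians describe the tested names and carry no test. The number of such bases is tied to unit length, since a unit with more of them must be longer to stay under 50%. The 2 were not separated here. At the border of the class, AT-rich repeats with 40% to under 50% GC had a median of 0.14 in RSeT against primed cells (212 tested). That lay above the medians for 1 and 2 bases, so the order by number was not an order by percentage. Simple repeats with units of 4 or more bases and exactly 50% GC had -0.22 (387 tested). Units of 3 bases with under 50% GC, just too short, had 0.00 (31 tested). With the drugs these 3 sets had medians of -0.08, 0.17 and 0.22.

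**Figure D5:**
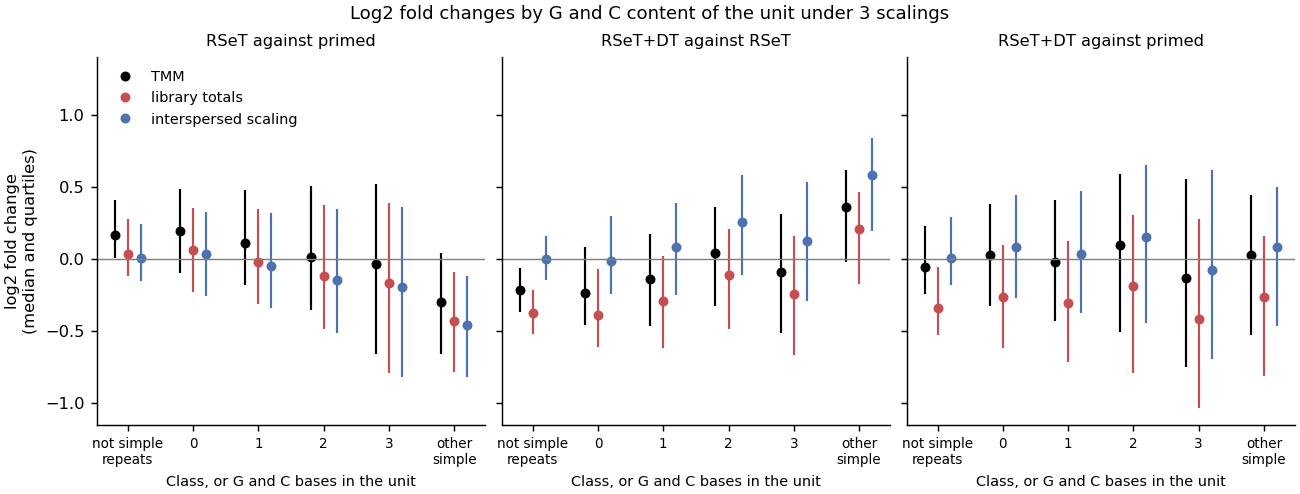
Median (points) and quartiles (lines) of log2 fold changes by the number of G or C bases in the unit of AT-rich repeats, with entries that are not simple repeats at the left and the other simple repeats at the right of each panel. Colours give the 3 scalings. In RSeT against primed cells the TMM medians run from 0.19 at 0 bases to -0.04 at 3 and -0.30 in the other simple repeats.

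Names with more T than A were more numerous and more counted than those with more A than T. They were 1384 against 895 names, and held 59.99 ± 0.031% against 33.6 ± 0.11% of the class's counts in primed, 58.3 ± 0.19% against 35.1 ± 0.26% in RSeT and 56.8 ± 0.81% against 36.8 ± 0.83% in RSeT+DT cells (n = 2 each). In RSeT against primed cells 123 of 688 tested T-rich names were called higher and 82 lower, and 86 of 375 A-rich names higher and 39 lower, with TMM, beside 22.8% and 23.8% of all tested entries. With interspersed scaling the counts were 77 and 141, and 56 and 74, beside 13.7% and 36.1%. The names do not say which strand was transcribed, and the strand setting of the counting is not given in the sources used here.

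Rotations and reverse complements joined the 2684 names into 693 families, of which 343 had names on both strands and 255 a single name. Strand here is that of the written name. In the family of (AAAT)n, which has no G or C, the 4 A-rich names summed to 271.3 and 280.1 CPM in primed, 275.4 and 274.6 CPM in RSeT and 198.9 and 227.9 CPM in RSeT+DT cells. The 4 T-rich names summed to 291.8 and 310.2, 373.7 and 368.1, and 277.7 and 314.1 CPM. With rotations summed before the fit, the T-rich strand rose by 0.37 (SE 0.041, adjusted p = 1.12e-06) in RSeT against primed cells, while the A-rich strand had 0.07 (SE 0.039) and was not called. The strands of (AAAAG)n were very unequal in level: the 5 A-rich names summed to 25.6 to 40.6 CPM and the 5 T-rich names to 335.7 to 377.4 CPM over the 6 libraries. The T-rich strand, (CTTTT)n, rose by 0.27 (SE 0.037) with the drugs, and the A-rich strand had -0.19 (SE 0.089), not called. In the family of (AAGATG)n, the most counted, both strands fell in RSeT cells, by 0.16 (SE 0.053) and 0.19 (SE 0.045), and rose with the drugs, by 0.68 (SE 0.054) and 0.55 (SE 0.045).

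Names within a family did not all move alike. Of the 117 families with at least 4 tested names, 35 held both a called rise and a called fall in RSeT against primed cells, 55 held rises without a fall, 13 falls without a rise and 14 neither. All tested entries had 22.8% higher and 23.8% lower in that comparison. Whether names of a family differ more than unrelated names was not tested. The median range of log2 fold changes within a family was 1.47. The satellite family had the widest range of the 117, from -0.59 to 9.0, and the next was that of (AAATTC)n, from -0.60 to 4.37. In RSeT+DT against RSeT cells 21 families held calls in both directions, the median range was 1.23, and the satellite family ranked 51 of 117. There 25% of all tested entries were higher and 17.4% lower. Summing rotations and reverse complements before the fit left 66 higher and 65 lower in RSeT against primed cells, and 98 higher and 20 lower with the drugs. These counts are of fewer entries, and the share over all summed entries is not given here. Ranges are widened by names with few counts, since a name needs only about 10 counts, scaled to library depth, in each library of a pair to be tested.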

How the data were processed

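Total RNA of 6 H9 libraries was measured, 2 in each of 3 groups. The authors deposited a table of raw counts per repeat with 15600 entries and a table of CPM with 7383 of them. The deposited CPM values equal counts per 1000000 counts of the listed entries within 0.00442. Listed entries have a total of at least 10 counts and the highest unlisted total is 9, so 5332 further names that meet the rule were left out. Per the submitters' processing notes, the tools were Trimmomatic 0.39, STAR 2.7.8a, Subread 2.14.2 with featureCounts, and the build GRCh38/hg38. What each tool did, which repeat annotation was counted, whether strand was used and how multi-mapped reads were handled is not given in the sources used here. RNA came from a miRNeasy extraction and a stranded total RNA library kit, per the labels' protocols.

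Counts of all listed entries were fitted in edgeR 4.0.16 (R 4.3.3) by its quasi-likelihood test, with TMM, all 6 libraries in 1 fit and group as the only term. The filter filterByExpr kept entries at its minimum count of 10 and total of 15. Adjusted p-values are Benjamini-Hochberg over the 4665 tested entries, at 0.05. SE was derived from the log2 fold change and the F statistic. The fit had 3 residual degrees of freedom and a common biological coefficient of variation of 5.49%. Chi-square tests of AT-rich repeat counts between replicates gave 1.44 (primed), 1.72 (RSeT) and 1.97 (RSeT+DT) per degree of freedom, above sampling noise. Deposited CPM are counts over library totals, so their ratios differ from TMM fold changes by the TMM factors, which ran from 0.888 to 1.12. Counting intervals are exact 95% intervals and cover counting error only, since reads without molecular identifiers are not independent molecules.

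Named rows are the satellite pentamers, the 10 of highest mean CPM, the 8 largest rises and falls per comparison among called rows with a mean count of at least 50 and no overlap, the highest row with and without G or C per length class, and the row with the longest tested unit. (TTTCAAT)n was added after its values were seen. The rule, the classes and the lists were chosen with earlier results of these data known. Alternatives were RLE size factors, library totals, interspersed scaling, other filters, DESeq2 1.42.0, limma 3.58.1 on log2-transformed deposited CPM with 1 or 0.1 added, a replicate block, only the groups compared, thinning of RSeT replicate 1, a 2-fold minimum, summed rotations and each library left out. The test was checked on simulated counts.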

Additional observations from a re-analysis of the deposited data

How the results depend on the processing

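Numbers of AT-rich repeats called are given as higher and lower, in RSeT against primed, in RSeT+DT against RSeT and in RSeT+DT against primed cells. They were 243 and 135, 159 and 94, and 255 and 126. Library totals gave 170 and 215, 80 and 174, and 131 and 293. Interspersed scaling gave 156 and 240, 286 and 28, and 278 and 111. The shares of all tested entries are given above for TMM and these scalings only. Under the other settings they are not given, so the counts that follow do not set AT-rich repeats against other entries. A mean count of at least 50 gave 129 and 161 higher against primed cells. DESeq2 gave 144 and 66, 90 and 36, and 178 and 68. On the deposited CPM, limma with 1 added gave 155 higher against primed cells, 76 and 184, and 141 and 331, and with 0.1 added 147, 75 and 175, and 140 and 314. A change of at least 2-fold, tested with glmTreat of edgeR, gave 35 and 17, 0 and 0, and 30 and 12; the 0 and 0 were 0 and 17 at an unadjusted p under 0.05. Summed rotations gave 96 and 88, 30 lower with the drugs, and 148 and 60. With reverse complements summed too there were 66 and 65, 98 and 20, and 114 and 46 of fewer entries. RLE size factors, no filter, only the groups compared and the thinning of RSeT replicate 1 stayed within 1.5 times. Leaving out each library gave 146 to 287 and 92 to 151, 112 to 165 and 46 to 96, and 206 to 242 and 93 to 126. The replicate block gave 240 and 137, 154 and 89, and 251 and 124; replicate numbers do not pair the libraries (correlations of deviations 0.038, -0.042 and 0.022), and the block ended 1 call of a named row, (ATTCC)n in RSeT against primed cells, with 0.99, and brought its value in RSeT+DT against primed cells, 1.15, past the threshold. Of 112 called changes of named rows, 82 kept their call and direction under each of the 17 alternatives in which they could be fitted; the filter on a mean count of at least 50 left out rows below it. Reversed values were -0.16 for (AATAAGA)n in RSeT+DT against primed cells with library totals and both limma fits (-0.16 and -0.16), and -0.094, -0.093 and -0.094 for (TCATCT)n in the same fits. With interspersed scaling (TATTTTA)n was -0.014 in RSeT against primed cells and (TTTA)n 0.029 with the drugs. The causes were not tested. Depth limits the many rows with few counts: 1489 of 2684 were not tested.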
